A study of Mus musculus with 4 samples.

Results

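Snord32a, Snord33, Snord34 and Snord35a are 4 box C/D small nucleolar RNAs (snoRNAs) that lie in introns of the mouse gene Rpl13a. They were taken by gene symbol, with earlier results of these data known, and all 4 were found among the 47069 gene IDs of the table. They are described here in Lewis lung carcinoma, an established mouse lung carcinoma line grown under the skin of C57BL/6 mice, and in the exosomes that such tumours released. The tumour group is RNA of primary tumour cut 3 weeks after inoculation (2 libraries). The exosome group (2 libraries) is RNA from the medium of tumour pieces cultured for 12 h without serum, which was cleared by centrifugation, passed through a 0.2 µm filter and treated with a precipitation reagent. All 4 libraries share strain and tumour line, and none comes from tissue without tumour. The precipitate was collected without ultracentrifugation, so what it holds besides vesicles is not known from the labels. The comparison asked how the RNA of tumour and of its exosomes differs.

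Box C/D snoRNAs are cut out of the introns of their host genes and bound by a set of core proteins that includes the methyltransferase fibrillarin. Each pairs with a stretch of ribosomal RNA and directs methylation of a ribose there. Snord32a is known for sites on the RNAs of both ribosomal subunits, Snord33 for a site on the small subunit RNA, and Snord34 and Snord35a for sites on the large subunit RNA. Rpl13a encodes a protein of the large ribosomal subunit. These 4 snoRNAs, also called U32a, U33, U34 and U35a, are known from work on lipotoxic and oxidative stress, where they leave the nucleus, and they have been described in secreted vesicles.

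The sequences below are shown because they say how far reads of the 4 snoRNAs can be told apart from one another. They are the GENCODE M21 transcripts on GRCm38, printed 5′ to 3′ from the minus strand. Capitals mark the box C motif, searched as TGATGN in the first 20 bases, and the box D motif, searched as CTGA in the last 15 bases, both on the transcript strand only.
Snord32a, intron 2, chr7:45127382-45127464, 83 bases: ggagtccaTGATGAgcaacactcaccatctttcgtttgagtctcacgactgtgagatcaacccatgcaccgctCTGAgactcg
Snord33, intron 4, chr7:45126864-45126947, 84 bases: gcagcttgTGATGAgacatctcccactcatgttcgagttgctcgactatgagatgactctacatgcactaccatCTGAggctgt
Snord34, intron 5, chr7:45126601-45126670, 70 bases: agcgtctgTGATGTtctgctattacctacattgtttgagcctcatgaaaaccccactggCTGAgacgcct
Snord35a, intron 6, chr7:45126346-45126435, 90 bases: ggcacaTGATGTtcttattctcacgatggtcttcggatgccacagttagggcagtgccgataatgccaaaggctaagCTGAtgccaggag

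Both motifs were found in all 4 snoRNAs of Rpl13a and in 83.8% of the 99 annotated transcripts with a Snord symbol (83 of 99). Among the 4, identity over a global alignment ran from 52.3% (Snord33 with Snord34) to 65.9% (Snord32a with Snord33). Snord35a and Snord35b, a related snoRNA outside Rpl13a, were 73.9% identical, and their longest common stretch was ttctcacgatggtcttc, 17 bases. A search of all GENCODE M21 transcripts found no near-identical copy of Snord32a, Snord34 or Snord35a under another gene name. That search was too strict to return Snord35b for Snord35a, and sequence outside annotated transcripts was not searched.

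**Figure D1:**
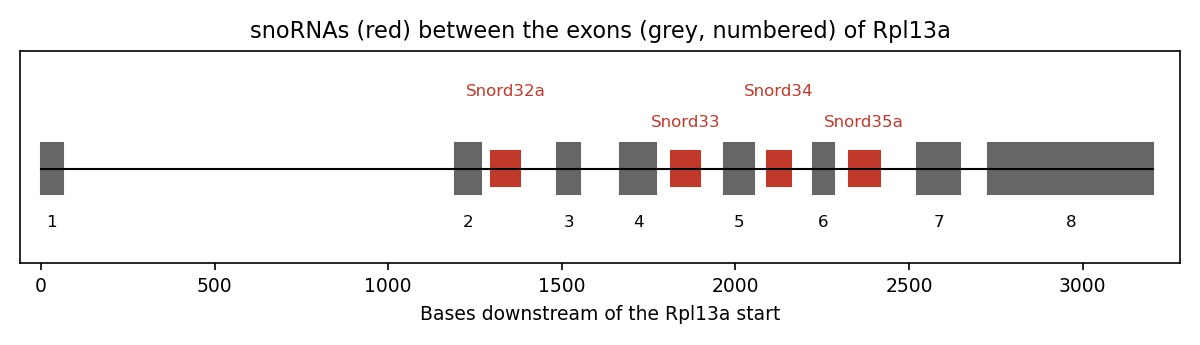
The 4 snoRNAs (red) and the 8 exons (grey) of the coding transcript Rpl13a-201, placed by distance in bases from the start of the gene. Snord32a lies in intron 2 and the other 3 in introns 4, 5 and 6.

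Each snoRNA lies nearer to the exon before it than to the exon after it. The gap to the exon before is 31 bases for Snord32a, 43 for Snord33, 38 for Snord34 and 42 for Snord35a, and the gap to the exon after is 107, 69, 63 and 108 bases. Rpl13a spans positions 45125558 to 45128761 of chromosome 7 (GRCm38, minus strand). The 4 snoRNAs share a primary transcript and are not replicates of one another.

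The libraries differed widely in depth. The exosome libraries held 305751 and 217201 counts and the tumour libraries 14543691 and 10849811, so that 1 count is 3.27 or 4.60 counts per 1000000 counts of the library (CPM) in exosomes and 0.0688 or 0.0922 CPM in tumour. Genes with a Snord symbol made up 0.539% and 0.478% of exosome counts and 63.4% and 64.3% of tumour counts. Differences below are log2, exosomes minus tumour, from edgeR's quasi-likelihood test with TMM scaling, which sets the typical tested gene near 0 (median 0.018 over 1442 genes). With library totals in place of TMM that median was 2.75, so values on both scales are given for the tested snoRNAs of Rpl13a. Whether replicates came from separate animals is not stated in the labels, so the spread behind each p-value may be technical. Intervals are exact Clopper-Pearson 95% intervals and cover counting error only, since the reads were amplified and no molecular identifiers are described. In these bulk samples, fewer cells or vesicles that hold a snoRNA and less of it in each cannot be told apart, and neither can a lower share of a snoRNA and a higher share of other RNA.

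Snord32a, Snord34 and Snord35a were abundant in tumour and fell to 20 counts or fewer in each exosome library. Snord32a had 294958 and 210967 tumour counts against 10 and 11 in exosomes. Snord34 had 50536 and 36336 against 20 and 7. Snord35a had 27857 and 19937 against 3 and 1. Snord33 stood apart with 14 and 12 tumour counts and 0 in both exosome libraries.

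As a share of the library, Snord32a made up 20281 and 19444 CPM of tumour counts. In exosomes it made up 32.7 CPM (95% interval 15.7 to 60.1) and 50.6 CPM (25.3 to 90.6). Both exosome values lay below both tumour values, as they did for Snord34 and Snord35a and, by CPM, for 15.8% of the 1442 tested genes. Snord34 went from 3475 and 3349 CPM in tumour to 65.4 CPM (40.0 to 101) and 32.2 CPM (13.0 to 66.4) in exosomes. Snord35a went from 1915 and 1838 CPM to 9.81 CPM (2.02 to 28.7) and 4.60 CPM (0.117 to 25.7). Exosome replicate 1 had the higher value for Snord34 and Snord35a and the lower one for Snord32a. The intervals of the 2 replicates overlapped for each, but the Snord34 value of replicate 2 lay below the interval of replicate 1. For comparison, Snord55, the Snord gene with the highest tumour FPKM, had 398 and 304 exosome counts.

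**Figure D2:**
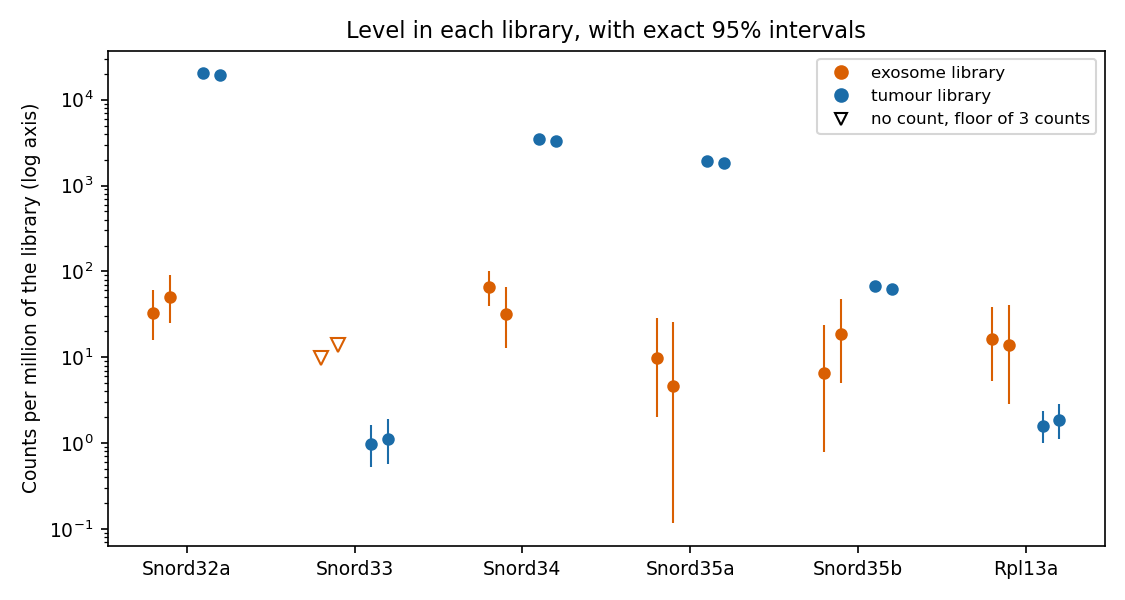
CPM (log axis) for the 4 snoRNAs, Snord35b and the host Rpl13a, 1 point per library with its exact 95% interval, exosome libraries in orange and tumour libraries in blue. Snord32a, Snord34 and Snord35a are lower in both exosome libraries, Rpl13a is higher, and Snord33 has no exosome count, marked at the floor of 3 counts (9.81 and 13.8 CPM).

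All 3 snoRNAs that passed the filter on low counts fell, against 22.1% of the 1442 tested genes called lower. They passed the filter through their high tumour counts, so this count is a description. Snord32a fell by 11.72 on the log2 scale (SE 0.27, edgeR adjusted p = 7.80e-08). Snord35a fell by 10.70 (SE 0.29, edgeR adjusted p = 8.65e-08) and Snord34 stood at -8.83 (SE 0.31, edgeR adjusted p = 1.99e-07). With library totals the 3 still fell, to -8.94 for Snord32a, -7.94 for Snord35a and -6.06 for Snord34, against 11.5% of tested genes called lower. On that scale the pooled tumour level of Snord32a was 496 times the exosome level (counting interval 325 to 802), that of Snord34 66.3 times (45.5 to 101) and that of Snord35a 246 times (96.1 to 903). The interval of Snord35a is wide because it rests on 4 exosome counts in all. The SE of 0.29 for Snord35a is taken from the F statistic and is smaller than counting error alone. It does not give the precision of the fold. The size of the TMM value depends on the libraries in the fit, and where 1 library of a group is left, it is assumed to vary like the other group. Without tumour replicate 1 or 2, Snord32a stood at -13.96 and -13.95, Snord34 at -11.08 and -11.07, and Snord35a at -12.89 and -12.89. Without exosome replicate 1 or 2, Snord32a stood at -11.50 and -11.87, Snord34 at -9.61 and -8.33, and Snord35a at -11.52 and -10.20.

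Other box C/D snoRNAs fell as well, most of them tested through their tumour counts in the same way. Of 47 tested genes with a Snord symbol, 47 were called lower and 0 higher with TMM, where 22.1% of all tested genes were called lower. Their median was -9.86, with a range from -14.44 to -1.88. Among these 47, ordered from the most negative difference, Snord32a stood 7th, Snord35a 15th and Snord34 35th. Snord98, Snord11 and Snord7, which stand at the head of this order, had no exosome count, so their fitted differences depend on the prior count. Among snoRNAs in introns of other ribosomal protein genes, 15 of the 27 members present in the table could be tested. Of these, 15 of 15 fell, against 22.1% of all tested genes, with a median of -10.01. Snord55, Snord43 and Snord83b, the most abundant of that list, stood at -10.01, -9.50 and -10.09 (edgeR adjusted p at most 4.42e-07). With library totals they stood at -7.21, -6.74 and -7.30. Of the 18 listed snoRNAs from the Gas5 and Snhg1 transcripts, 4 were in the table and none of these had a count in any library.

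**Figure D3:**
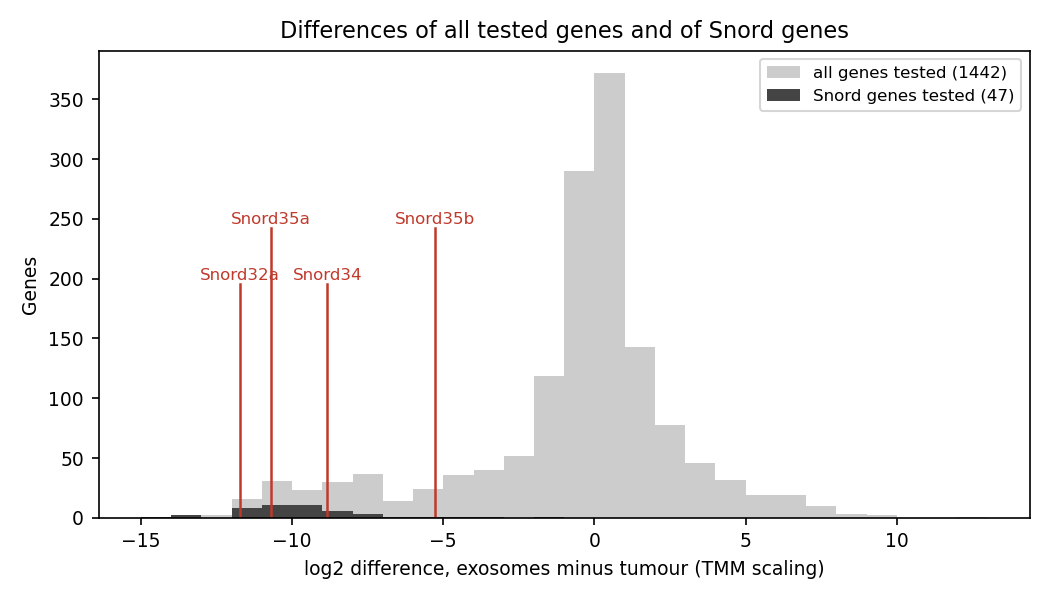
Number of genes by log2 difference, exosomes minus tumour with TMM scaling, for all 1442 tested genes (light) and the 47 tested Snord genes (dark), with red lines at Snord32a (-11.72), Snord35a (-10.70), Snord34 (-8.83) and Snord35b (-5.27). The 3 tested snoRNAs of Rpl13a lie among the Snord genes, whose median is -9.86, while the median of all tested genes is 0.018.

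Set against other box C/D snoRNAs, Snord32a was lower in exosomes, while Snord34 and Snord35a gave no call that held without each library. Together the 4 snoRNAs made up 4.05% and 3.83% of tumour Snord counts and 2.00% (1.38% to 2.80%) and 1.83% (1.11% to 2.84%) of exosome Snord counts, so both exosome intervals lay below both tumour values. Snord32a held the largest part, with 3.20% and 3.03% of Snord counts in tumour against 0.606% (0.291% to 1.11%) and 1.06% (0.530% to 1.89%) in exosomes. Snord34 had higher values in exosomes, from 0.548% and 0.521% in tumour to 1.21% (0.742% to 1.87%) and 0.674% (0.272% to 1.38%). The second of these intervals includes the tumour values. Snord35a, at 0.302% and 0.286% in tumour and 0.182% (0.0375% to 0.531%) and 0.0963% (0.00244% to 0.536%) in exosomes, had tumour values inside both exosome intervals. The smallest p that permuting these libraries can give is 0.33 (exact, two-sided), so these shares were not tested.

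The same question was put to edgeR with each library scaled to the counts of the other Snord genes. Most Snord counts came from Snord55, Snord43 and Snord49a, so these genes largely set this scale. Without them, 578 of 1649 and 401 of 1038 Snord counts were left in exosomes. In tumour, 3111465 of 9215190 and 2262796 of 6972495 were left. No fit without these genes was run. Snord32a was then lower by 2.00 (SE 0.41, adjusted p = 8.58e-06), where 0.832% of all tested genes and 5 of 44 other Snord genes were called lower. Snord34 was higher by 0.85 (SE 0.41, adjusted p = 0.0434), where 8 of 44 other Snord genes were called higher. Since 89.5% of all tested genes are called higher on this scale, the other Snord genes are the set to read this against. The adjustment ran over all tested genes, so these adjusted p-values do not control error among the Snord genes alone. Snord35a stood at -1.02 (SE 0.70, adjusted p = 0.167). The Snord32a call held in each of the 4 fits that leave out 1 library, with values from -2.39 to -1.59. The Snord34 call did not, with 0.30 without exosome replicate 1 (adjusted p = 0.659), 0.87 without tumour replicate 1 (adjusted p = 0.219) and 0.79 without tumour replicate 2 (adjusted p = 0.265). Without exosome replicate 2 it was 1.15 (adjusted p = 0.00234).

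Within the set of 4, tumour libraries had nearly the same make-up. Snord32a took 79.0% and 78.9% of their summed counts, Snord34 took 13.5% and 13.6%, and Snord35a took 7.46% and 7.46%. In exosomes, on 33 and 19 counts, Snord32a took 30.3% (15.6% to 48.7%) and 57.9% (33.5% to 79.7%). The tumour values lie above the first of these intervals and within the second. Snord34 took 60.6% (42.1% to 77.1%) and 36.8% (16.3% to 61.6%) of exosome counts, and both intervals lay above the tumour values. The share of Snord35a, 9.09% (1.92% to 24.3%) and 5.26% (0.133% to 26.0%), was not distinguishable from that in tumour at this depth.

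**Figure D4:**
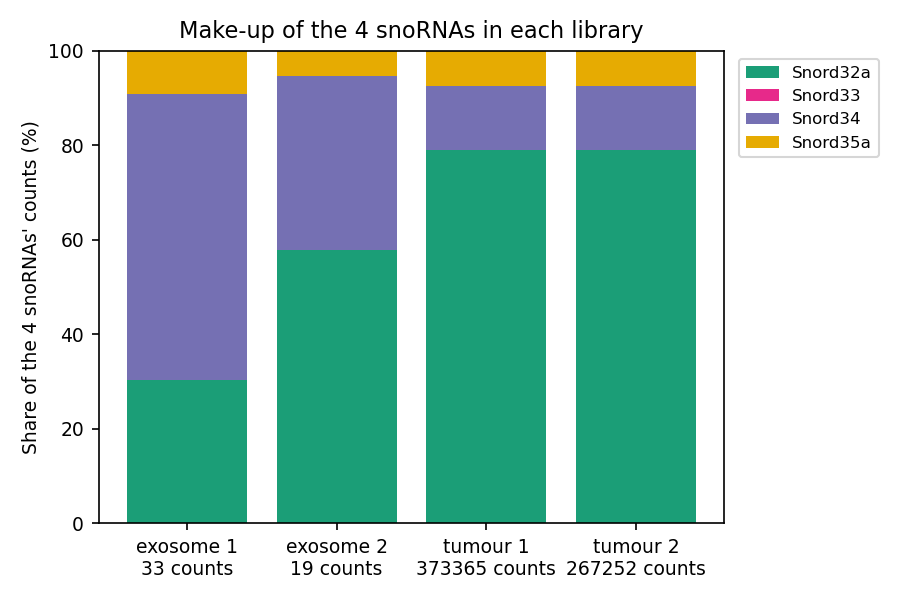
Percentage of the summed counts of the 4 snoRNAs held by each, 1 bar per library, with the number of counts under each bar. Both tumour bars are 79.0% and 78.9% Snord32a, while the exosome bars, on 33 and 19 counts, hold 60.6% and 36.8% Snord34; Snord33 is too small to see.

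Levels of different genes were set side by side per length, on the deposited FPKM. Adaptors were ligated to the RNA and the product was cut from a gel by size. The part of these steps in the order of the genes was not tested. In tumour the order was Snord32a (244347 and 234269 FPKM), Snord34 (49640 and 47843), Snord35a (21282 and 20417) and Snord33 (11.5 and 13.2), with no overlap between neighbours. Among the 99 Snord genes these levels ranked 6th in both tumour libraries for Snord32a, 16th and 15th for Snord34, 20th in both for Snord35a and 48th in both for Snord33. In exosomes Snord34 (934 and 460 FPKM) and Snord32a (394 and 610) overlapped, and Snord35a (109 and 51.2) lay below both. Snord33 was listed at 0 in both exosome libraries.

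Snord33 had about as few tumour counts as its host, although it lies between Snord32a and Snord34 in the same transcript. The tumour level was 0.963 CPM (0.526 to 1.62) and 1.11 CPM (0.571 to 1.93). It did not pass the filter and was not tested. The floor of 3 counts used for a count of 0 is 9.81 and 13.8 CPM in exosomes, and the exact interval of a count of 0 reaches 12.1 and 17.0 CPM, all above the tumour level. At the tumour level, both exosome libraries together would have held 0.535 counts by library totals and 3.66 by TMM scaling. No fold is given, and the depth does not settle whether Snord33 differed: with no filter edgeR called it lower (adjusted p = 0.0139), and with at least 10 counts in 2 libraries or with DESeq2 it was not called (adjusted p = 0.0904 and 0.258).

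The annotation sets Snord33 apart from the other 3. All 84 of its bases lie inside exons of other transcripts on the same strand, namely the retained-intron transcripts Rpl13a-211 and Rpl13a-218 (84 bases each), with Rpl13a-209 (48 bases) and Rpl13a-213 (16 bases) over parts of it, and 30 of its bases belong to the microRNA gene Mir5121. No exon of another gene covers any base of Snord32a, Snord34 or Snord35a. Of the 37 Snord genes covered in every base by exons of other genes, 31 had no tumour count and the median tumour FPKM was 0. Of the 58 with no covered base, 9 had no tumour count and the median was 2441 FPKM. Snord33 had the lowest level (12.3 FPKM) of the 6 covered genes with a tumour count. The others ran from 751 FPKM (Snord35b) to 59064 FPKM (Snord19), so full cover did not always go with a low level. The genes that overlap Snord33 held few counts too: Mir5121 had no count in any library and Rpl13a had 23 and 20 in tumour. The authors' annotation and their treatment of reads that match more than 1 gene are not given in these sources. The part of this overlap in the low count of Snord33 was not tested.

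**Figure D5:**
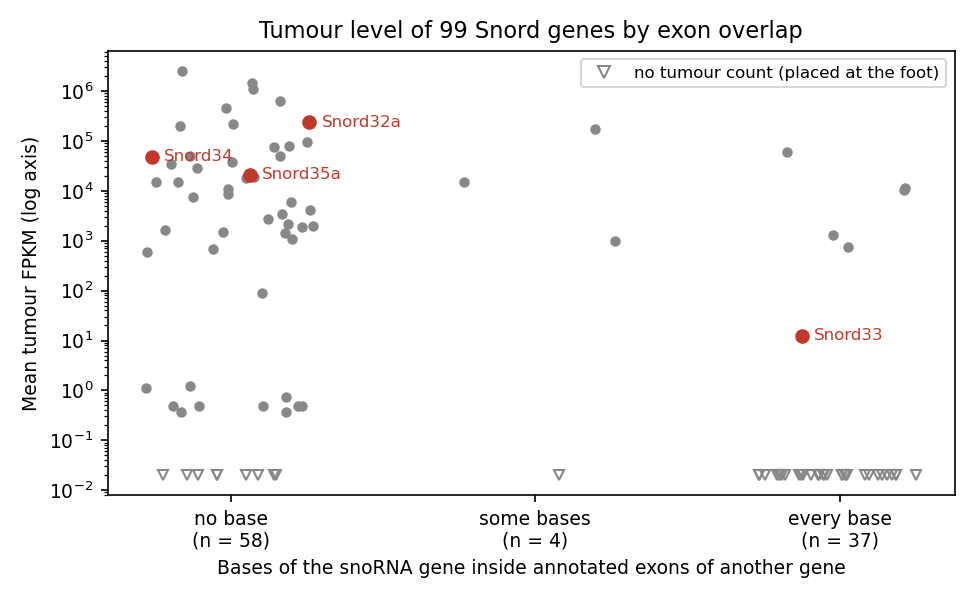
Mean tumour FPKM (log axis) of the 99 Snord genes, grouped by how many of their bases lie inside annotated exons of another gene on the same strand, with genes without a tumour count as open triangles at the foot. Snord32a, Snord34 and Snord35a are in the uncovered group of 58, and Snord33 is in the fully covered group of 37, of which 31 have no count.

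Snord35b had 982 and 685 tumour counts and 2 and 4 in exosomes, and it fell by 5.27 (SE 0.29, edgeR adjusted p = 2.11e-06). With library totals it fell by 2.50, and the pooled tumour level was 5.72 times the exosome level (counting interval 2.62 to 15.6). Its SE of 0.29 is smaller than counting error alone. Against the other Snord genes it was higher by 4.43 (SE 0.90, edgeR adjusted p = 8.63e-06), on 6 exosome counts. Per length, Snord35a stood above Snord35b in tumour (21282 and 20417 against 776 and 726 FPKM). All 87 bases of Snord35b lie inside same-strand exons of other genes, as with Snord33, while no base of Snord35a does. The part of this overlap in the values of Snord35b was not tested. In exosomes the 2 overlapped, with 109 and 51.2 FPKM for Snord35a against 75.2 and 212 for Snord35b.

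The host gene Rpl13a had few counts and showed no fall of the size seen for Snord32a, Snord34 and Snord35a. It also has annotated retained-intron transcripts, so its counts are not shown to be messenger RNA alone. Its counts were 23 and 20 in tumour and 5 and 3 in exosomes, and it stood at 0.39 (SE 0.51, edgeR adjusted p = 0.668) with TMM. With library totals it was higher in exosomes by 3.15 (edgeR adjusted p = 0.000165), from 1.58 and 1.84 CPM in tumour to 16.4 CPM (5.31 to 38.2) and 13.8 CPM (2.85 to 40.4). Its direction depends on the processing, and it turned to -0.38 with DESeq2 and to -0.78 with no filter.

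The ratio of snoRNA to host within a library needs no scaling between libraries. On FPKM, Snord32a stood at 158218 (105442 to 249592) and 130139 (84262 to 213058) times Rpl13a in tumour. In exosomes it stood at 24.7 (7.68 to 92.0) and 45.3 (12.0 to 253) times. For Snord34 the ratio was 32142 and 26577 in tumour and 58.5 (21.3 to 199) and 34.2 (7.80 to 205) in exosomes. For Snord35a it was 13780 and 11342 in tumour and 6.83 (1.06 to 35.1) and 3.80 (0.0723 to 47.3) in exosomes. For all 3 snoRNAs the exosome intervals lay below both tumour values. The exosome ratios rest on 5 and 3 host counts, and the product was cut from a gel by size, whose part in the ratios was not tested.

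Genes of the snoRNA machinery were hardly measured. Of 4 core protein genes in the table, Nop56 (-1.80, SE 0.79, edgeR adjusted p = 0.125) and Nop58 (-0.55, SE 0.74, edgeR adjusted p = 0.749) could be tested, each with 1 count in each exosome library. Of 11 assembly factor genes 1 was tested, Nolc1, a nucleolar and Cajal body protein, which rose by 2.27 (SE 0.59, edgeR adjusted p = 0.0185) on 5 and 2 exosome counts. DESeq2 gave 1.61 for Nolc1 (adjusted p = 0.669). With edgeR, 230 of all 1442 tested genes were called higher. Of 6 genes for the spliceosomal protein SmD3 and for snoRNA export and turnover, 0 were tested. Among 13 ribosomal protein genes that host snoRNAs, 11 were tested, 3 fell and 0 rose, with a median of -0.39, where 22.1% of all tested genes were called lower. The 3 were Rpl7a (-8.91), Rps3a1 (-2.51) and Rpl3 (-1.10). Rpl7a, with 15759 and 11671 tumour counts, has snoRNAs in its own introns, and how reads there were divided was not tested. With library totals Rpl3 and Rps3a1 turned to 1.67 and 0.27. The Rpl3 call was lost without exosome replicate 1 (-1.20) or 2 (-0.96), with DESeq2 (adjusted p = 0.0544) and with at least 10 counts in 2 libraries (adjusted p = 0.192).

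Few stress genes could be measured. Of all 1442 tested genes, 230 were called higher and 318 (22.1%) lower. Of 20 oxidative stress genes 6 could be tested, and 0 rose and 0 fell, with a median of 0.22. Of 19 genes of lipotoxic stress and the unfolded protein response 4 were tested and 1 fell, Hspa5, a chaperone of the endoplasmic reticulum, by 2.04 (SE 0.65, edgeR adjusted p = 0.0413) on 1 and 2 exosome counts. With library totals Hspa5 turned to 0.71, and its call was lost without exosome replicate 1 (-1.47), with DESeq2 (adjusted p = 0.101) and with at least 10 counts in 2 libraries (adjusted p = 0.0985).

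Of 3 other nuclear RNAs, 2 were called lower with TMM, where 22.1% of all tested genes were called lower. By library totals Rn7sk alone was lower, where 11.5% of tested genes were called lower. Rn7sk, which holds a transcription elongation factor inactive in the nucleus, fell by 5.81 (SE 0.20, edgeR adjusted p = 1.77e-07), and Malat1, a nuclear long noncoding RNA, stood at -1.69 (SE 0.32, edgeR adjusted p = 0.00352). Neat1, which builds nuclear paraspeckles, stood at -0.54 (edgeR adjusted p = 0.459). Rn7sk made up 49.1 and 50.6 CPM in exosomes and 411 and 405 CPM in tumour. Malat1 and Neat1 together made up 36.0 and 50.6 CPM in exosomes and 16.2 and 12.4 CPM in tumour, and with library totals they turned to 1.08 and 2.23. Markers of cell types were too few to describe the make-up of the tumour. Of 5 epithelial and carcinoma markers 3 had no count in any library, Epcam, Cdh1 and Krt19, and the sum of the list was 0.369 to 4.60 CPM. Summed macrophage markers were 6.54 and 36.8 CPM in exosomes and 3.92 and 3.50 in tumour, neutrophil markers 55.6 and 50.6 against 4.95 and 2.03, fibroblast markers 78.5 and 96.7 against 9.42 and 7.65, and erythroid markers 268 and 483 against 114 and 81.2. Of the tested members of these 5 lists 0 rose and 2 fell, the near-identical globin genes Hba-a1 (-1.08) and Hba-a2 (-1.04), named after their values were seen, where 22.1% of all tested genes were called lower. With library totals these turned to 1.72 and 1.74, in the direction of the summed CPM, and with at least 10 counts in 2 libraries both calls were lost (adjusted p = 0.0749 and 0.0875). The part of cell make-up in the snoRNA differences was not tested.

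Over the 4 libraries, the 5 tested genes whose profile was most like the mean profile of Snord32a, Snord34 and Snord35a were all annotated snoRNAs. Likeness was the Euclidean distance between log2 CPM profiles centred on their means. They were Snord19 (distance 0.107), Gm24494 (0.109), Gm24299 (0.217), Gm24357 (0.266) and Gm24463 (0.293), with differences of -10.51, -10.44, -10.18, -10.38 and -10.36. With 4 libraries in 2 groups, such a likeness reflects mainly the size of the difference between the groups.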

How the data were processed

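Per the submitters' processing notes, the tools were TopHat2 2.0.9, Cufflinks 2.1.1 and Cuffdiff on GRCm38.p4. The deposited table holds whole-number counts per gene with no normalization, and FPKM that the authors scaled to gene length and library total. Which tool counted, with which annotation and strand setting, and how it treated reads with several matches, is not given in those notes. Per the labels, adaptors were ligated to both ends of total RNA, and the amplified product was cut from a gel. The tables of each sample repeat those values and were not used. Of 47069 gene IDs, 46574 had a GENCODE M21 symbol.

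All genes that passed filterByExpr (minimum count 10, minimum total 15, 1442 genes) entered a two-sided quasi-likelihood test in edgeR 4.0.16 (R 4.3.3), with TMM scaling and no term besides group. Adjustment was by Benjamini-Hochberg, at 0.05. The SE is the absolute difference divided by the square root of F. It can be smaller than counting error where exosome counts are few, as for Snord35a and Snord35b. The fit was tested on simulated data, where it recovered falls less often than rises, so a gene not called may still be lower. Alternatives were other scalings, DESeq2 1.42.0, limma 3.58.1 on log2 FPKM with a pseudocount of 1 or 0.1, other filters, robust estimation, a replicate block and leaving out each library.

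Members and lists were chosen with earlier results of these data known. The lists cover box C/D core proteins, assembly factors, SmD3 and export, snoRNAs of other ribosomal protein genes and of Gas5 and Snhg1, host ribosomal protein genes, oxidative stress, lipotoxic stress, nuclear RNA and 5 cell types. Genes named by rule are the 4 snoRNAs, Rpl13a, Snord35b, up to 3 tested members of a list with the highest mean, and the 5 of nearest profile. Of the genes so allowed, those on which no result turns were left out. Snord98, Snord11, Snord7, Hba-a1 and Hba-a2 were named after their values were seen. One gene is not reported here.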

Additional observations from a re-analysis of the deposited data

How the results depend on the processing

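Under 14 of 15 other choices of scaling, tool, unit, filter, block or libraries, Snord32a, Snord34 and Snord35a kept their direction and their call. The exception was scaling to the other Snord counts, where Snord34 turned to 0.85 and Snord35a lost its call (-1.02), so that 1 of the 4 snoRNAs was called lower in place of 3. Leaving out 1 library each on that scale, chosen after seeing the data, gave 0.30 and 1.15 for Snord34 without exosome replicate 1 and 2 and 0.87 and 0.79 without tumour replicate 1 and 2, and -1.64, -0.72, -0.98 and -1.07 for Snord35a in the same order. With no filter Snord33 was also called (-6.13, edgeR adjusted p = 0.0139), and it was not called by DESeq2 (-4.08, adjusted p = 0.258) or with at least 10 counts in 2 libraries (-5.87, adjusted p = 0.0904). It rests on no exosome count, so these fitted values depend on the prior count.

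Over all genes, 230 were called higher and 318 lower. The numbers were 920 and 166 with library totals, 1290 and 12 with other Snord counts, 830 and 171 with limma on log2(FPKM + 1), 977 and 161 on log2(FPKM + 0.1), and 610 lower with no filter. Without 1 library, those called higher ran from 82 to 189 and those called lower from 190 to 319. The fits without tumour replicate 1 (108 and 190) and without tumour replicate 2 (82 and 197) gave the fewest. The replicate numbers share no stated animal or batch. Deviations of same-numbered libraries from their group means gave r = -0.020 over 1442 genes. Since many genes had only a few exosome counts, this value cannot show whether the libraries were paired. With a replicate block Snord32a was at -11.72, Snord34 at -8.85 and Snord35a at -10.70, and no call of theirs changed, while Rpl3 lost its call (-1.11, adjusted p = 0.0614).

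Reversed beside Snord34 were Nop56 (0.94), Nop58 (2.19), Rps3a1 (0.27), Rpl3 (1.67), Hspa5 (0.71), Malat1 (1.08), Neat1 (2.23), Hba-a1 (1.72) and Hba-a2 (1.74) with library totals. With limma on log2(FPKM + 1) they stood at 0.15, 0.27, 0.26, 1.21, 0.31, 0.67, 0.67, 1.66 and 1.72, and on log2(FPKM + 0.1) at 0.62, 1.25, 0.26, 1.61, 0.62, 1.04, 1.81, 1.71 and 1.76. With other Snord counts they stood at 7.86, 9.11, 7.20, 8.59, 7.64, 8.01, 9.16, 8.66 and 8.67, with Rpl7a at 0.78, Rn7sk at 3.90, Snord35b at 4.43 and Snord43 at 0.19. Rpl13a turned to -0.38 with DESeq2 and -0.78 with no filter. The cause was not tested beyond the shift of all genes by scaling. The 4 snoRNAs held 1.23% of exosome and 3.92% of tumour counts of genes with a Snord, Snora or Scarna symbol. That is 3.18 times, against 2.06 times for Snord counts. Annotated snoRNAs under other symbols, such as Gm24494, are left out of both. Without Snord55, Snord43 and Snord49a, they held 5.22% of exosome and 11.9% of tumour Snord counts. As shares of the summed FPKM of the 4 snoRNAs, Snord32a, Snord34 and Snord35a held 77.5%, 15.8% and 6.75% in tumour. In exosomes they held 40.9%, 53.0% and 6.07%. Exosome values rest on 52 counts in all, which limits every statement on them.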
